A study of Homo sapiens with 4 samples.

Results

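The vascular endothelial growth factor (VEGF) and platelet-derived growth factor (PDGF) ligands VEGFA, VEGFB, VEGFC, PDGFA, PDGFB and PDGFC were followed in human mammary epithelial cells before and after a short exposure to TGF-β1. These 6 genes were chosen by name, with earlier results of these data known, out of 34500 genes with a transcript in the tables. Their 54 transcripts were found through the GENCODE v29 transcript-to-gene map, out of 159239 transcripts that it matched to a gene. All libraries came from MCF10A, an immortalised, non-tumorigenic mammary epithelial cell line, carrying a stable scramble shRNA, which targets no intended gene. The 2 control libraries came from untreated cells (0 h), and the 2 treated libraries from cells given 5 ng/ml TGF-β1 for 1.5 h. All 4 shared a growth medium with EGF, cholera toxin, insulin, hydrocortisone and horse serum. The labels call the replicates biological duplicates of this 1 line, and the p-values below measure only the spread between them.

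VEGF and PDGF ligands are related secreted dimers held together by a cystine knot, and they act on receptor tyrosine kinases of neighbouring cells. VEGFA drives the growth and permeability of blood vessels, VEGFC the growth of lymphatic vessels, and PDGFs the division and migration of fibroblasts, smooth muscle cells and pericytes. Epithelial cells make several of these ligands while carrying few of their kinase receptors, so the signal is largely paracrine, and alternative splicing of VEGFA and PDGFA decides how tightly the secreted protein is held by heparan sulphate at the cell surface and in the matrix.

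The exons that separate the splice forms are shown first, because the values per form below turn on them. VEGFA lies on the plus strand at chr6:43770184-43786487 (GENCODE v29, GRCh38). Its exons 6a and 7 encode the basic stretches that bind heparan sulphate. Forms with both exons are of the VEGF189 type, forms with exon 7 alone of the VEGF165 type, and forms with neither of the freely diffusing VEGF121 type. Exon 6a at chr6:43780732-43780803 is 72 bases long and exon 7 at chr6:43781956-43782087 is 132 bases long, and both are coding. PDGFA lies on the minus strand at chr7:497258-520296. Its long form reads through exon 6, whose coding part of 53 bases at chr7:500447-500499 gives the protein a basic tail that keeps it at the cell surface, while the short form skips that exon. The 3 exons are given 5′ to 3′ in the sense of the mRNA, in lower case throughout, with no base marked.
VEGFA exon 6a: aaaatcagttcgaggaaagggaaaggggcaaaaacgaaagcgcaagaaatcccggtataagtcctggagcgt
VEGFA exon 7: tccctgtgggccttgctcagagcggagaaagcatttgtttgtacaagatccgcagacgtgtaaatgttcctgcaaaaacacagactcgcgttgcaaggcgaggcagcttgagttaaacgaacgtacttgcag
PDGFA exon 6, coding part: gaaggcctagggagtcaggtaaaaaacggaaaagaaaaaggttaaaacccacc

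Total estimated counts per library lay between 35737659 and 40792300. The cells carried the labelled identity: all 8 mammary epithelial markers were above 20 TPM (a level corrected for transcript length and for library size) in every library, and all 7 endothelial markers, the cells on which VEGF acts, were below 1 TPM, with a summed level between 0.475 and 1.31 TPM. Of 6 fibroblast markers 4 were below 1 TPM in every library, and the list summed to 19.4 and 21.1 TPM in the controls and 25.9 and 28.2 TPM after TGF-β1, carried by DCN (17.2 to 21.3 TPM) and COL1A1 (1.99 to 8.76 TPM). Of the blood markers, CD3E was listed at 0 throughout, PTPRC, ITGAM and HBB were below 1 TPM in every library, and CD14 was at 25.7 and 35.9 TPM in the controls and 22.6 and 34.7 TPM after TGF-β1. The part of these markers in the results was not tested. The libraries labelled replicate 2 stood apart in both groups. PHF8, a histone demethylase named in the labels' protocols, was at 7.05 TPM in control replicate 1 and 6.32 TPM in TGF-β1 replicate 1, but at 1.08 and 1.16 TPM in the replicates numbered 2, although all 4 labels read scramble shRNA. Ribosomal protein genes took 19.9% of the TPM in both libraries numbered 1 and at least 24.0% in those numbered 2. The change of each ligand is therefore also given within each replicate number.

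After 1.5 h of TGF-β1, VEGFA, PDGFA and PDGFB mRNA stood higher in both treated libraries than in both controls, while VEGFB, VEGFC and PDGFC overlapped between the groups. The mean level of VEGFA was 3.06 times that of the controls, PDGFA 2.08 times and the scarce PDGFB 8.65 times, on the TPM scale. Bulk RNA cannot tell more producing cells from more mRNA per cell. Genes were tested on summed estimated counts with edgeR's quasi-likelihood test as the main test and DESeq2 as its alternative, each at a Benjamini-Hochberg adjusted p under 0.05. The main test called 0 of the 6 ligands and 0 of 14774 genes (0% called). At an unadjusted p under 0.05 it put 3 ligands higher and 0 lower, where the background was 1.34% of genes higher and 0.386% lower. DESeq2 called the same 3 ligands higher and none lower, against 0.422% of 19649 genes higher and 0.0356% lower. Both treated libraries lay above both controls in 3 of 6 ligands, against 7.87% of all tested genes, and below them in none, against 8.34%. Because the 6 ligands were chosen with earlier results of these data known, these shares are not a test of the family. Unless edgeR is named, a call below is DESeq2's.

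**Figure D1:**
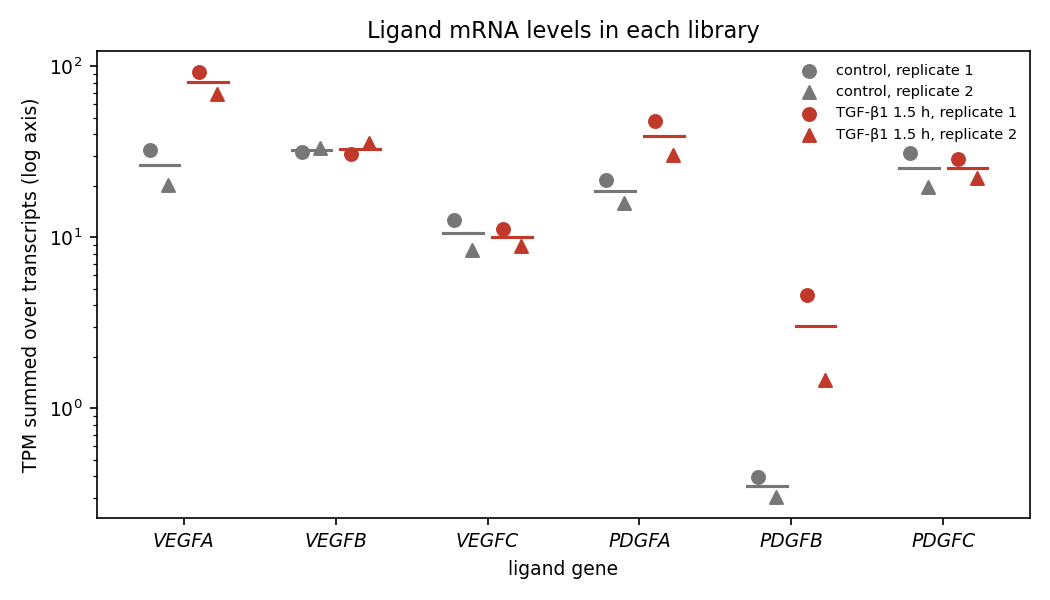
Level of each ligand mRNA in TPM (log axis) in the 2 control libraries (grey) and the 2 TGF-β1 libraries (red), with circles for replicate 1, triangles for replicate 2 and a bar at each mean. The treated points of VEGFA, PDGFA and PDGFB sit above their controls, and those of VEGFB, VEGFC and PDGFC overlap theirs.

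VEGFA, the main driver of new blood vessel growth, was at 32.5 TPM in control replicate 1 and 20.3 TPM in control replicate 2. It was at 92.8 TPM in TGF-β1 replicate 1 and 68.7 TPM in TGF-β1 replicate 2. Both treated libraries lay far above both controls, and in each group replicate 2 was the lower. In CPM (counts corrected for library size only) the mean went from 45.5 ± 14.4 (SD, n = 2) to 155 ± 25.2 (SD, n = 2). The fold was 3.11 within replicate 1 and 3.88 within replicate 2. The edgeR log2 fold change was 1.77 ± 0.28 (SE), with a 95% interval from 1.02 to 2.52, and its adjusted p of 0.731 missed the threshold. DESeq2 called VEGFA higher with an adjusted p of 1.10e-05. With any 1 of the 4 libraries left out, DESeq2 kept that call, whereas edgeR called VEGFA in none of those fits. The log2 fold change in them ran from 1.48 to 2.15 in DESeq2 and from 1.48 to 2.14 in edgeR.

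VEGFB, which binds FLT1 and is linked to fatty acid handling more than to vessel growth, lies on the plus strand at chr11:64234538-64238793. Its mRNA was at 31.7 and 33.4 TPM in control replicates 1 and 2 and at 30.7 and 35.4 TPM in TGF-β1 replicates 1 and 2. The 4 libraries lay close together and the groups overlapped. The fold in CPM was 0.943 within replicate 1 and 1.08 within replicate 2. The edgeR log2 fold change was 0.02 with a 95% interval from -0.41 to 0.44, which holds changes in either direction of up to about that size.

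VEGFC, the lymphatic ligand that signals through FLT4, lies on the minus strand at chr4:176683538-176792727. It was at 12.7 and 8.45 TPM in control replicates 1 and 2 and at 11.2 and 8.88 TPM in TGF-β1 replicates 1 and 2. Here the replicate number, not the treatment, separated the libraries: both numbered 2 were lower than both numbered 1. The fold in CPM was 0.920 within replicate 1 and 1.10 within replicate 2. The edgeR log2 fold change was -0.01 with a 95% interval from -0.65 to 0.63.

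PDGFA, whose homodimer signals through PDGFRA to mesenchymal cells under an epithelium, was at 21.6 and 15.9 TPM in control replicates 1 and 2. It was at 47.8 and 30.2 TPM in TGF-β1 replicates 1 and 2. The treated libraries lay above the controls, but TGF-β1 replicate 1 was well above TGF-β1 replicate 2. In CPM the fold was 2.50 within replicate 1 and 1.78 within replicate 2, and the edgeR log2 fold change was 1.11 ± 0.24 (SE; 95% interval 0.45 to 1.77). DESeq2 called it at an adjusted p of 0.0497, just inside the threshold. Leaving out control replicate 1 (DESeq2 adjusted p = 0.326), control replicate 2 (1.00) or TGF-β1 replicate 1 (1.00) ended this call. Only with TGF-β1 replicate 2 left out did it hold (DESeq2 adjusted p = 0.0228).

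PDGFB, the ligand that recruits pericytes to vessels and is made chiefly by endothelium and platelets, lies on the minus strand at chr22:39223359-39244751. It was the rarest of the ligands, with 39 and 15 estimated counts in control replicates 1 and 2 and 231 and 80 in TGF-β1 replicates 1 and 2. The levels were 0.397 and 0.304 TPM in the controls and 4.59 and 1.47 TPM after TGF-β1. All treated values exceeded all control values, and TGF-β1 replicate 1 was the highest by far. The fold was 6.02 within replicate 1 and 5.66 within replicate 2 in CPM, but 11.6 and 4.83 in TPM, which also depends on the lengths of the transcripts to which reads were assigned. The edgeR log2 fold change of 2.55 ± 0.70 (SE) had a wide 95% interval from 0.66 to 4.45. DESeq2 called PDGFB at an adjusted p of 0.0447. Leaving out either control replicate 2 or TGF-β1 replicate 1 ended this call (DESeq2 adjusted p = 1.00 in both), and leaving out control replicate 1 (0.0170) or TGF-β1 replicate 2 (0.0136) did not.

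PDGFC, a ligand secreted in latent form and freed by proteolysis, lies on the minus strand at chr4:156760454-156971394. It was at 31.1 and 19.8 TPM in control replicates 1 and 2 and at 28.7 and 22.3 TPM in TGF-β1 replicates 1 and 2. As with VEGFC, the replicates numbered 2 were the lower in both groups and the treatment groups overlapped. The fold in CPM was 0.873 within replicate 1 and 1.08 within replicate 2. The edgeR log2 fold change was -0.07 with a 95% interval from -0.80 to 0.67.

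**Figure D2:**
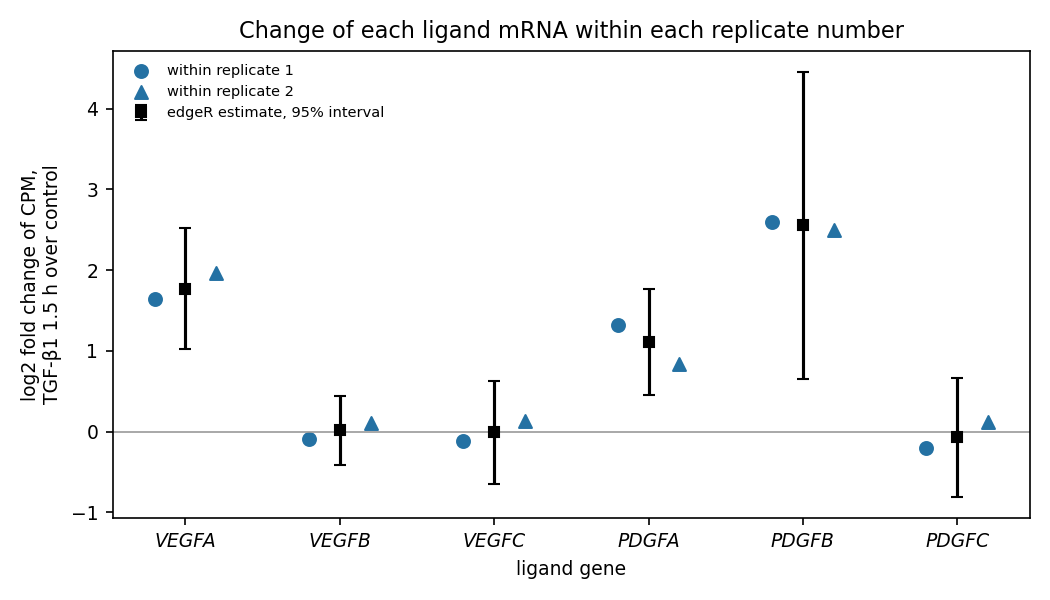
Log2 fold change in CPM, TGF-β1 1.5 h over control, for each ligand within replicate 1 (circles) and replicate 2 (triangles), with the edgeR estimate and its 95% interval (black squares and bars). VEGFA at 1.77, PDGFA at 1.11 and PDGFB at 2.55 have intervals above 0, and the 3 others have intervals that span it.

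The order of the ligands differed between the groups. In the controls the means ran from VEGFB (32.5 TPM) through VEGFA (26.4 TPM), PDGFC (25.4 TPM) and PDGFA (18.7 TPM) to VEGFC (10.6 TPM) and PDGFB (0.350 TPM). The first 4 of these overlapped each with its neighbour, whereas VEGFC and PDGFB each lay below the gene before them in both libraries. After TGF-β1, VEGFA came first at 80.7 TPM and stood clear of the next gene in both libraries. PDGFA (39.0 TPM) and VEGFB (33.1 TPM) overlapped, and PDGFC (25.5 TPM), VEGFC (10.1 TPM) and PDGFB (3.03 TPM) followed without overlap. VEGFA made up 25.02% and 20.7% of the summed TPM of the 6 ligands in control replicates 1 and 2, and 43.0% and 41.1% in TGF-β1 replicates 1 and 2. That sum was 129.9 and 98.1 TPM in the controls and 216 and 167 TPM after TGF-β1. With 2 libraries against 2, an exact permutation test of such a single value cannot go below a two-sided p of 0.333, so none is given.

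The VEGFA splice forms did not share the higher level evenly by their estimated values. Transcripts with exon 7 but not exon 6, the VEGF165 type, summed to 11.7 and 7.90 TPM in control replicates 1 and 2 and to 39.0 and 30.1 TPM in TGF-β1 replicates 1 and 2. Transcripts with neither exon, the VEGF121 type, summed to 10.1 and 6.05 TPM in the controls and to 34.0 and 28.1 TPM after TGF-β1. In both forms every treated value lay above every control. Transcripts with exons 6 and 7, the matrix-bound VEGF189 type, were at 4.10 and 0.759 TPM in the controls and 4.59 and 0.562 TPM after TGF-β1. By these values this form followed the replicate number and not the treatment. The values rest on 110 and 21.7 estimated counts in control replicates 1 and 2 and 137 and 10.5 in TGF-β1 replicates 1 and 2. Transcripts with a retained intron, which carry no reading frame in the annotation, went from 6.60 and 5.55 TPM to 15.2 and 8.05 TPM, so that they too were higher in both treated libraries.

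As shares of VEGFA TPM, the VEGF121 type went from 30.4% ± 0.79 (SD, n = 2) to 38.7% ± 2.997 (SD, n = 2) and the VEGF165 type from 37.5% ± 2.06 to 42.9% ± 1.19. The VEGF189 type went from 8.18% ± 6.27 to 2.88% ± 2.92, with overlap, and retained introns from 23.9% ± 5.01 to 14.0% ± 3.28. The shares of the VEGF121 and VEGF165 types lay above the controls in both treated libraries, and those of retained introns below. Counted in estimated reads in place of TPM, the VEGF165 type went the other way, from 33.1% ± 0.57 to 30.3% ± 2.06, while the VEGF121 type again went up, from 38.3% ± 2.24 to 46.8% ± 2.27. Retained introns overlapped between the groups on that scale, at 21.7% and 28.9% in control replicates 1 and 2 and 24.0% and 19.2% in TGF-β1 replicates 1 and 2. The direction of the VEGF165 share, and the separation of the retained-intron share, thus depended on the correction for transcript length. A test of transcript usage within the gene (edgeR's diffSpliceDGE) gave VEGFA a p of 0.132 (adjusted 1.00) over 12 transcripts. It called 0 of the 5 ligands it could test, and 0 of them had an unadjusted p under 0.05, where 0.746% of 10722 genes were called and 5.76% were under 0.05 before adjustment. With the replicate number as a block, the VEGFA p was 0.0460 (edgeR adjusted p = 0.890).

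**Figure D3:**
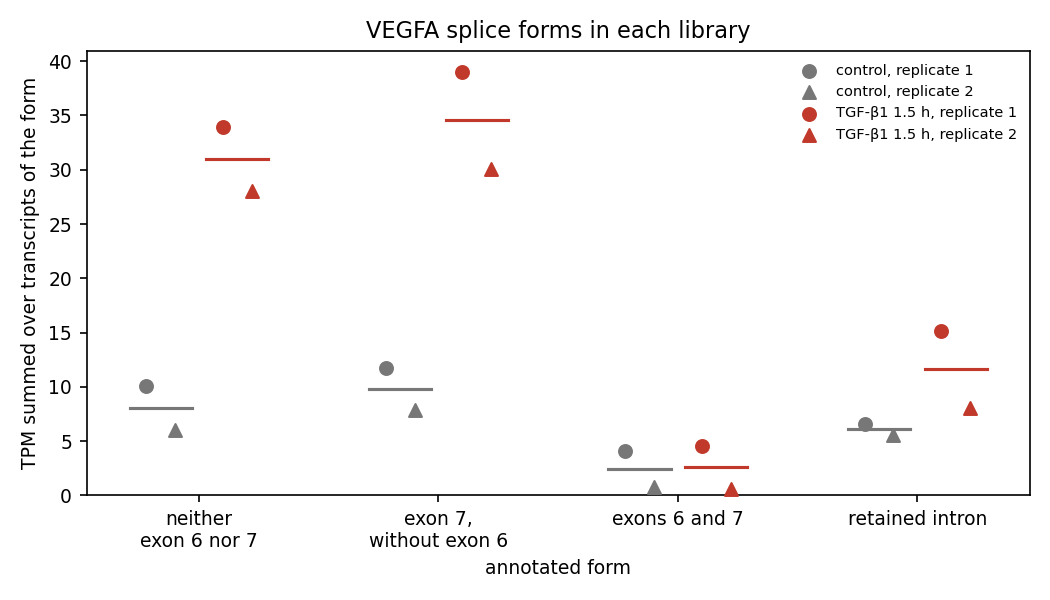
Summed TPM of the VEGFA transcripts of each annotated form in the 2 controls (grey) and the 2 TGF-β1 libraries (red), with circles for replicate 1, triangles for replicate 2 and a bar at each mean. The forms with neither exon and with exon 7 alone lie above their controls after TGF-β1, and the form with exons 6 and 7 stays with its replicate number.

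Single VEGFA transcripts varied more than their sums. Of 29 VEGFA transcripts in the tables, 14 were listed at 0 in all 4 libraries. VEGFA-225, of the VEGF165 type, was at 1.28 and 0.055 TPM in control replicates 1 and 2 and at 21.9 and 12.5 TPM in TGF-β1 replicates 1 and 2. VEGFA-201 of the same type was at 4.36 and 4.41 TPM in the controls and 2.91 and 5.44 TPM after TGF-β1, so one transcript of this type was far higher after treatment and the other was not. VEGFA-205, which has the same internal exons as VEGFA-225 and differs from it in its outer ends, was at 3.55 and 3.08 TPM in the controls and 8.36 and 7.65 TPM after TGF-β1. Reads from the exons that such models share were divided among them by estimation, so the sum over a form is less dependent on that division than any 1 transcript.

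Among the VEGF121 type, VEGFA-227 was at 5.29 and 1.75 TPM in control replicates 1 and 2 and at 26.1 and 15.5 TPM in TGF-β1 replicates 1 and 2. VEGFA-206 was at 4.77 and 4.30 TPM in the controls and at 7.84 and 12.6 TPM after TGF-β1. Both transcripts were higher in every treated library, VEGFA-227 by the larger margin. The deposited model of VEGFA-227 was 3404 bases long, against 984 bases in GENCODE v29, and that of VEGFA-229, of the VEGF165 type, was 3536 against 1116 bases. In both versions the 2 models differ by 132 bases, the length of exon 7. VEGFA-229 was at 2.53 and 0.362 TPM in the controls and 5.81 and 4.46 TPM after TGF-β1. VEGFA-222, the main transcript with exons 6 and 7, was at 3.25 and 0.759 TPM in the controls and 4.59 and 0.229 TPM after TGF-β1.

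On transcripts, DESeq2 called 4 of the ligands' transcripts higher, all of them from VEGFA, and 0 lower, against 0.442% of 57045 transcripts higher and 0.249% lower. They were VEGFA-205 (DESeq2 adjusted p = 0.00533), VEGFA-225 (0.00394), VEGFA-227 (0.00192) and VEGFA-212 (8.27e-05). VEGFA-212, named after its values were seen because it makes up under 5% of the gene, is a model of 12167 bases with retained introns, at 0.643 and 0.552 TPM in the controls and 3.16 and 1.86 TPM after TGF-β1. Of the other retained-intron models, VEGFA-215 was at 2.68 and 1.87 TPM in the controls and 5.28 and 3.46 TPM after TGF-β1, and VEGFA-217 at 2.33 and 1.88 TPM in the controls and 1.65 and 0 TPM after TGF-β1. The main test, edgeR, called 0 of 28 ligand transcripts and 0% of 57796 in all. Of the 28, 8 were higher at an unadjusted p under 0.05 and 1 lower, where the background was 1.69% higher and 1.28% lower.

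PDGFA was made mostly as its short, freely secreted form. That form, PDGFA-203 with 196 codons, was at 12.8 and 12.9 TPM in control replicates 1 and 2 and at 34.7 and 20.9 TPM in TGF-β1 replicates 1 and 2. The controls were nearly equal and both treated libraries were above them. The long form PDGFA-201, with exon 6 and 211 codons, was at 2.76 and 1.65 TPM in the controls and 4.58 and 2.36 TPM after TGF-β1, with the groups overlapping. PDGFA-202, a short form from another first exon, was at 5.15 and 0.745 TPM in the controls and 6.78 and 6.18 TPM after TGF-β1. The retained-intron transcript PDGFA-206, under 5% of the gene and named after its values were seen, went from 0.254 and 0.163 TPM to 1.05 and 0.556 TPM.

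The short form made up 70.3% ± 15.2 (SD, n = 2) of PDGFA TPM in the controls and 70.9% ± 2.39 (SD, n = 2) after TGF-β1. The long form made up 11.6% ± 1.71 and 8.69% ± 1.26, lower in both treated libraries than in both controls. PDGFA-203 missed DESeq2's threshold with an adjusted p of 0.0775 and a log2 fold change of 1.15 ± 0.34 (SE). The usage test gave PDGFA a p of 0.972 (edgeR adjusted p = 1.00).

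**Figure D4:**
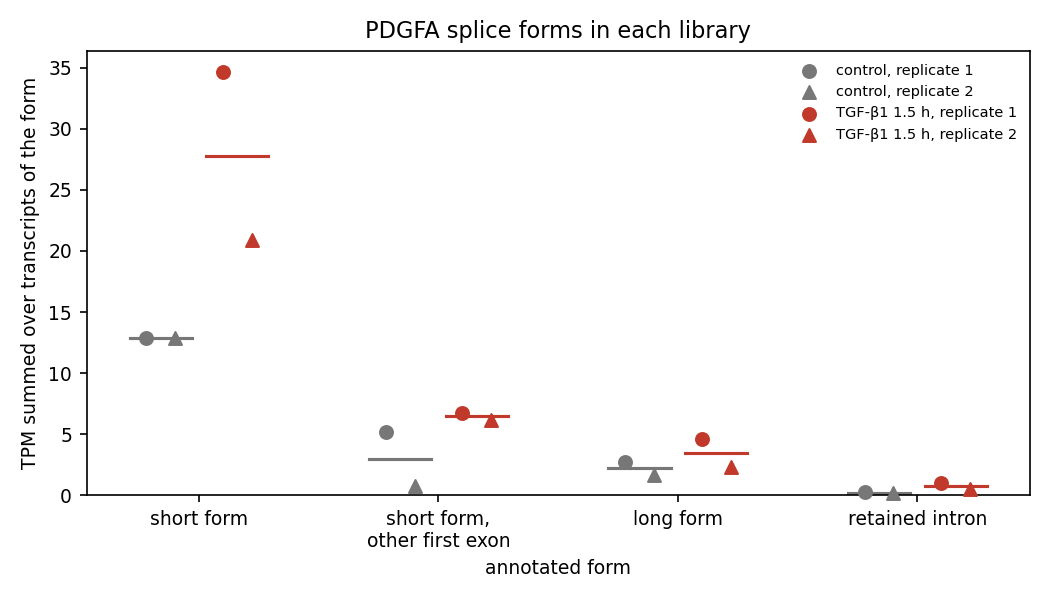
TPM of the PDGFA forms in the 2 controls (grey) and the 2 TGF-β1 libraries (red), with circles for replicate 1, triangles for replicate 2 and a bar at each mean. The short form reached 34.7 and 20.9 TPM after TGF-β1 from 12.8 and 12.9 TPM, and the long form stayed under 5 TPM in every library.

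The annotated starts of PDGFA have GC boxes before them, as do those of VEGFB and VEGFC. A GC box is the letters GGGCGG that the factor SP1 is known to bind. The RefSeq promoter table (GRCh38.p14) held 3 of the 6 ligands, VEGFB, VEGFC and PDGFA, with 4 starts for PDGFA. The 250 bases before the start that lies 437 bases upstream of PDGFA-203 are shown because that transcript carried most of the PDGFA mRNA. They lie at chr7:519847-520096 on the minus strand, have a GC content of 81.6%, against a median of 58% over all such windows, and are printed 5′ to 3′ with GC boxes in capitals.
PDGFA upstream window: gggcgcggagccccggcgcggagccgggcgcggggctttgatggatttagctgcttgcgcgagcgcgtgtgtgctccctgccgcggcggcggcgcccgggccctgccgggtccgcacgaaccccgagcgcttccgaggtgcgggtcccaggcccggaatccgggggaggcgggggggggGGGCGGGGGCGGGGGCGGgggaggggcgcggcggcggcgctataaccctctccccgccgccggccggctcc

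This window held 3 GC boxes on either strand, side by side, while 42.64% of 35116 windows of that length held at least 1. It held 0 matches on either strand to each of 4 other motifs, none of which contains another. The SMAD box CAGAC occurred in 38% of all windows. The AP-1 site TGANTCA occurred in 6.573% of them. The hypoxia response core ACGTG was found in 18.51%, and the TATA box TATAAA in 10.72%. The other 3 PDGFA windows held 5, 4 and 1 GC boxes, and the last of them also held 2 CAGAC matches. The VEGFB window held 6 GC boxes and 1 CAGAC match and the VEGFC window held 2 GC boxes, so GC boxes were found before ligands whose mRNA was called and before ligands whose mRNA was not. A match is a description of the letters only.

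The 3 ligands that were not called differed in how their TPM was divided among transcripts. VEGFB was split between the coding VEGFB-201, with 46.2% of VEGFB TPM in the controls and 43.1% after TGF-β1, and the retained-intron VEGFB-204, with 47.1% and 51.4%. In estimated reads, which are not corrected for transcript length, VEGFB was mainly coding. Its coding transcripts held 71.86% in the controls and 68.85% after TGF-β1, and VEGFB-204 held 28.14% and 31.15%. VEGFC came almost wholly from the coding VEGFC-202, with 96.5% and 99.4%. Most PDGFC TPM went to PDGFC-201, a transcript annotated for nonsense-mediated decay with a reading frame of 50 codons, with 63.0% in the controls and 59.0% after TGF-β1. The full-length coding PDGFC-203 had 6.54% and 5.28% of PDGFC TPM, and the coding PDGFC-202 had 9.68% and 6.49%. Of the transcripts without a reading frame, PDGFC-206 had 12.4% and 18.9% and PDGFC-204 had 5.18% and 1.24%. In estimated reads the coding PDGFC transcripts held 14.9% in the controls and 12.4% after TGF-β1. All transcripts without a reading frame held less on that scale, at 3.89% and 4.59%. For PDGFC, then, the gene's summed level is mostly that of a model without the full reading frame. PDGFB-201, with 241 codons, was at 0.397 and 0.105 TPM in the controls and 1.95 and 0.641 TPM after TGF-β1. PDGFB-202, with 226 codons, was at 0 and 0.199 TPM in the controls and 0.787 and 0.825 TPM after TGF-β1. The short models PDGFB-204 and PDGFB-203 had reads in TGF-β1 replicate 1 alone, at 1.39 and 0.457 TPM, or 30.4% and 9.95% of PDGFB TPM there, from 15.5 and 5.10 estimated counts. The PDGFB fold in TPM within replicate 1 thus rests in part on these few reads. PDGFB-203, with a mean of 4.97% of PDGFB TPM after TGF-β1, falls under the 5% used to name transcripts. Genes annotated on the opposite strand overlap VEGFA, VEGFC, PDGFB and PDGFC, and none of them has a matched row in the tables.

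Of the related ligands outside the 6, PGF, a placental VEGF that binds FLT1, was at 1.97 and 2.46 TPM in control replicates 1 and 2 and 2.48 and 2.84 TPM in TGF-β1 replicates 1 and 2. PDGFD, which signals through PDGFRB, was at 2.49 and 3.66 TPM in the controls and 1.97 and 3.69 TPM after TGF-β1. VEGFD, another lymphatic ligand, had at most 8 estimated counts in any library and was below the count filter of the main test. None of the 3 was called.

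The receptors were nearly absent as kinases and present as co-receptors. FLT1, FLT4, PDGFRA and PDGFRB, the kinases for VEGFA and VEGFB, for VEGFC, and for the PDGFs, were below 1 TPM in every library. KDR, the main kinase receptor of VEGFA, was at 1.25 and 0.833 TPM in the controls and 1.06 and 0.571 TPM after TGF-β1. NRP1, the co-receptor that binds VEGF forms with exon 7, was at 28.9 and 9.23 TPM in control replicates 1 and 2 and at 26.3 and 8.24 TPM in TGF-β1 replicates 1 and 2. NRP2, the co-receptor that also binds VEGFC, was at 43.9 and 23.4 TPM in the controls and 49.1 and 26.0 TPM after TGF-β1. Both neuropilins were lower in the replicates numbered 2 and overlapped between treatments. DESeq2 called 0 of the 7 receptors in either direction, and the median edgeR log2 fold change of the 6 tested was -0.01, beside -0.01 over all tested genes.

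Few of the genes around the ligands were called. DESeq2 called 0 of 10 proteases that process or release the ligands (median edgeR log2 fold change 0.10). It called 0 of 9 genes of oxygen sensing (median 0.04) and 0 of 17 hypoxia targets (median 0.05). Over all genes it called 0.422% higher and 0.0356% lower. Both treated libraries lay above both controls in 6 of the 17 hypoxia targets and below them in 1. Over all tested genes the shares were 7.87% and 8.34%. Among the hypoxia targets, NDRG1 alone had an edgeR p under 0.05, and was at 79.1 and 60.7 TPM in the controls and 114 and 105 TPM after TGF-β1. It was named after its values were seen. Of 10 factors of mRNA decay and splicing linked to VEGFA, 0 were called (median 0.03). Of these, ZFP36L1 (edgeR log2 fold change 0.53) and ZFP36L2 (0.80), which bind AU-rich mRNA and promote its decay, were higher at an unadjusted p under 0.05. Of 9 tested inhibitors of angiogenesis and neuropilin ligands, 0 were called (median -0.08).

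Of 15 tested angiogenic factors of other families (median edgeR log2 fold change 0.04), DESeq2 called 1, higher, against 0.422% of all genes. This was EFNA1, an ephrin that acts in vessel formation, at 56.5 and 74.7 TPM in control replicates 1 and 2 and 183 and 288 TPM in TGF-β1 replicates 1 and 2. Its fold in CPM was 3.08 within replicate 1 and 4.01 within replicate 2, close to the 3.11 and 3.88 of VEGFA, with a DESeq2 adjusted p of 1.27e-05. Of 12 transcription factors linked to VEGFA or PDGFA, 1 was called, higher (median -0.002). This was JUN, an AP-1 subunit, at 10.1 and 8.68 TPM in the controls and 52.9 and 75.6 TPM after TGF-β1, with a DESeq2 adjusted p of 2.30e-18. Unlike VEGFA, PDGFA and PDGFB, EFNA1 and JUN had the higher of their treated values in replicate 2. Both kept their DESeq2 call without any 1 of the 4 libraries, with adjusted p of at most 0.0111. At an unadjusted edgeR p under 0.05, the chemokine CXCL1 (log2 fold change -1.26) was lower among the angiogenic factors, and EGR1 (-0.88) and TFAP2A (-0.49) among the transcription factors. ANGPTL4, another of the angiogenic factors, was not called (edgeR log2 fold change 1.28, DESeq2 adjusted p = 0.885). It was at 147 and 55.5 TPM in control replicates 1 and 2 and 305 and 184 TPM in TGF-β1 replicates 1 and 2. ANGPTL4, CXCL1, EGR1 and TFAP2A, and the pair ZFP36L1 and ZFP36L2, were named after their values were seen.

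**Figure D5:**
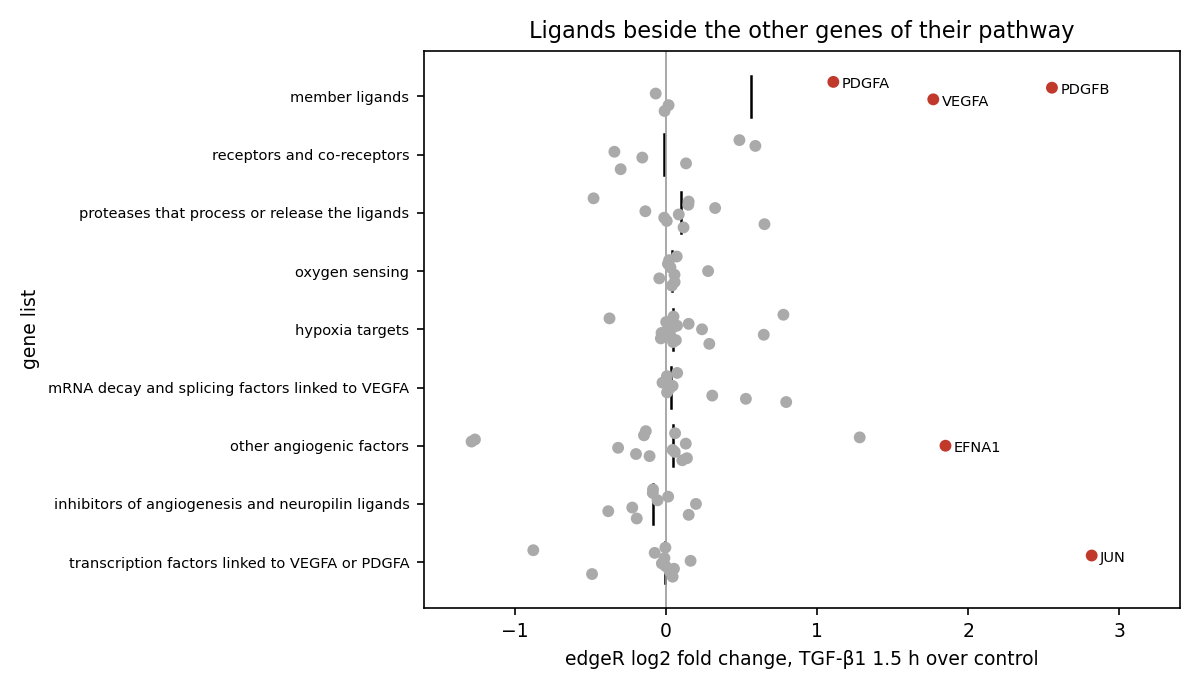
The edgeR log2 fold change of every tested gene in the lists around the ligands, TGF-β1 1.5 h over control, with 1 point per gene, red where DESeq2 called it and a black bar at each list's median. VEGFA, PDGFA and PDGFB stand to the right of 0 with EFNA1 and JUN, and the receptors lie between -0.34 and 0.59. ANGPTL4, which was not called, lies at 1.28.

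The genes whose pattern over the 4 libraries was most like that of VEGFA were CCN2 (a matricellular protein, CTGF in GENCODE v29), DNAJB5 (a heat shock co-chaperone) and RNF223, with distances of 0.161, 0.162 and 0.167 in centred log2 CPM among 14773 genes. CCN2 was at 4.49 and 2.51 TPM in control replicates 1 and 2 and 13.5 and 10.9 TPM in TGF-β1 replicates 1 and 2. Like VEGFA, it was higher after TGF-β1 and lower in replicate 2 within each group. For PDGFA the nearest were DAXX (a histone chaperone; distance 0.108), STX1A (a syntaxin; 0.125) and SPTSSB (a subunit of serine palmitoyltransferase; 0.163). DAXX was at 4.23 and 3.51 TPM in the controls and 10.7 and 6.36 TPM after TGF-β1, again highest in TGF-β1 replicate 1. RNF223 was scarce, at 0.215 and 0.125 TPM in the controls and 0.680 and 0.500 TPM after TGF-β1. SPTSSB was at 1.65 and 0.645 TPM in the controls and 2.10 and 0.888 TPM after TGF-β1, with the groups overlapping in TPM. These distances over 4 libraries are descriptions and carry no test.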

How the data were processed

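RNA of MCF10A cells was made into stranded, ribosomal-RNA-depleted libraries, per the labels' protocols, although the labels' molecule field reads polyA RNA. Per the submitters' processing notes, the authors used kallisto and the GRCh38 build. No kallisto version or transcript release is given in the sources used here. For each transcript, the deposited tables give estimated counts, TPM and effective lengths in bases, per the file headers. In estimated counts, a read that matches several transcripts is divided between them.

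Of 173259 transcripts, 159239 (91.908%) matched GENCODE v29 by identifier, and unmatched rows held 2.24% to 2.38% of each library's counts. Of those matched, 97.741% had the same length there. Counts and TPM were summed per gene, and counts rounded. Groups and replicate numbers came from the sample titles. edgeR 4.0.16 (TMM, filterByExpr, quasi-likelihood, no replicate block) was the main test and DESeq2 1.42.0 an alternative, both in R 4.3.3, with Benjamini-Hochberg adjustment over all genes or transcripts tested at 0.05. Totals were 35737659 to 40792300 counts, and PDGFB had the fewest. The tests were tried on simulated counts with known changes. Other normalizations, filters, a length offset, limma 3.58.1 on log2(TPM + 1), a replicate block and leaving out each library were the alternatives. DESeq2 without each library in turn, and DESeq2 on transcripts with the block, were chosen after seeing the data.

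Text names the 6 ligands, the related ligands and receptors, called genes of the other lists, the 3 genes nearest VEGFA and PDGFA, and transcripts with at least 5% of a ligand's TPM in either group. Exceptions are marked in the text. Members and lists were chosen with earlier results of these data known. One blood cell marker is not reported here.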

Additional observations from a re-analysis of the deposited data

How the results depend on the processing

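All 18 alternatives kept VEGFA, PDGFA and PDGFB higher: the log2 fold change ran from 1.48 to 2.15 for VEGFA (called in 7), 0.76 to 1.40 for PDGFA (called in 4) and 1.46 to 3.35 for PDGFB (called in 5). The 18 include the main fit read at an adjusted p under 0.01, which could neither change a direction nor add a call. Of all genes, the main test called 0 higher and 0 lower. Higher calls were 83 with DESeq2, 15 with no filter on low counts, 3 with the length offset, 8 to 20 with edgeR without 1 library and 40, 54, 56 and 62 with DESeq2 without 1 library. Lower calls were 7 with DESeq2, 0 to 5 in edgeR without 1 library (2 without the first and 5 without the other TGF-β1 library), and 5 to 17 with DESeq2 without 1 library. In fits that leave 1 sample in a group, that sample is assumed to vary like the other group. The cause of these moves was not tested.

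Of the 6 ligands, 3 were called higher with DESeq2, against 0.422% of all genes. Every call of a ligand came from DESeq2 or from edgeR with the replicate block. The other edgeR fits, also those without 1 library, and limma called 0 of them. With 1 library left out, DESeq2 called VEGFA in each fit, and PDGFA and PDGFB in only some. On transcripts DESeq2 called 4.

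Same-numbered samples share only a number in the labels. Differences between replicates 1 and 2 correlated at 0.66 between the groups over 14774 genes. With the replicate block edgeR called 258 genes higher and 76 lower, and DESeq2 194 and 51, both with 3 ligands higher. On transcripts with the block, edgeR called 0 of the ligands' transcripts and DESeq2 called 6. The share of all transcripts called in those fits is not given here.

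The 3 ligands near no change reversed sign. VEGFB ran from -0.1142 to 0.1448 when a library was left out, and was -0.0164 (edgeR) and -0.0029 (DESeq2) when control replicate 1 was dropped. DESeq2 gave -0.1062 when TGF-β1 replicate 2 was dropped. VEGFC was 0.0037 and 0.0143 with the replicate block in edgeR and DESeq2. It ran from -0.2398 to 0.2738 in edgeR when a library was left out, reversing to 0.1217 without TGF-β1 replicate 2, and in DESeq2 it reversed to 0.1278 and 0.2884. PDGFC was 0.0314 with the length offset and 0.0269 with limma. It ran from -0.3571 to 0.3029 in edgeR when a library was left out, reversing to 0.1032 without TGF-β1 replicate 2, and in DESeq2 it reversed to 0.1087 and 0.3176. The cause was not tested. PDGFB, at 15 counts in 1 control, is the ligand with the least depth.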
